A study of Mus musculus with 90 samples.

Results

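Synaptic vesicle and exocytosis genes were described across mouse brain subregions, p16 labels and stress groups. The genes were chosen by symbol: the synaptotagmins (Syt), syntaxins (Stx), syntaxin binding proteins (Stxbp), vesicle-associated membrane proteins (Vamp), Snap23, Snap25, Snap29, Snap47 and Snap91, synapsins (Syn), complexins (Cplx), Rab3 GTPases, RIM (Rims) and Unc13 proteins, Sv2 and Doc2 proteins, Rph3a, Syp, Synpr, Bsn and Pclo. Of the 19962 genes of the table, 82 met this rule, which used no measured value but was chosen with earlier results of these data known. The data come from the GeoMx Digital Spatial Profiler, which releases bound probes from chosen areas of interest (AOIs) of a tissue section and counts them by sequencing, with 1 value per gene and AOI from the mouse Whole Transcriptome Atlas. The brains were fixed in formalin, embedded in paraffin and cut at 5 µm. Chronic social stress (CSS) had been applied to 6 mice, and 4 control (ctrl) mice had not received it, with AOIs in 5 subregions: the hippocampal fields CA3 and CA1, the motor cortex (MC), the somatosensory cortex (SS) and the choroid plexus (CP), the tissue that secretes cerebrospinal fluid. Each AOI was labelled p16 high (46 AOIs) or p16 low (44 AOIs), after p16, a cell cycle inhibitor that accumulates in senescent cells. The sources used here do not say how the label was assigned, nor the strain, age and sex of the mice.

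At a synapse, transmitter is stored in vesicles that fuse with the presynaptic membrane when calcium enters. A SNARE on the vesicle (Vamp2) zips up with 2 on the target membrane (Stx1a and Snap25), a process primed by Unc13 and RIM proteins. Complexins clamp and promote fusion, and synaptotagmins such as Syt1 sense the calcium. Other members of the same families carry vesicles between organelles or serve secretion in cells that are not neurons. Grouped by role, the 82 genes were 21 calcium sensors (Syt, Doc2 and Rph3a), 19 target membrane SNAREs (t-SNAREs), 8 vesicle SNAREs, 7 syntaxin binding proteins, 10 priming and active zone proteins, 4 complexins, 4 Rab3 GTPases, 3 synapsins, 5 vesicle membrane proteins and the clathrin adaptor Snap91. Roles were assigned by gene symbol, so the calcium sensor role also holds synaptotagmins that lack calcium-binding residues, such as Syt16.

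Values are a signal, the probe count of a gene times 1 factor per AOI, which brings the median gene to 22.067. Between 184469 and 2098984 counts were recovered per AOI, and 10 of 100 possible AOIs were missing. The negative control, which targets no mouse transcript, has 1 value per AOI, called the negative probe here, and had a signal of 10.8 to 18.1. A value above it is not by itself a detection. Of the values of the 82 genes, 88.7% lay above it, against 77.3% of all gene values. Of the 82 genes, 68 had a mean signal above the median gene, 61 lay above the negative probe in at least 90% of AOIs and 21 in every AOI. Syt15 was above it in 9 of 90 AOIs and Unc13c in 25 of 90, so that little could be measured for them. Each gene has 1 value from its own probes, so levels are compared between samples and not between genes.

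CA1 and CA3 AOIs were checked against markers of their pyramidal cells: 5 of 5 CA3 markers were higher and 5 of 5 CA1 markers lower in CA3. Control mouse 1175 had the lowest CA3 marker mean among CA3 AOIs (6.95 and 6.57 on the log2 scale in its p16 high and p16 low AOI, against 7.01 to 8.02 in other mice). CSS mouse 1163 had 1 CA3 AOI, and its CA1 marker mean of 5.78 was the highest among CA3 AOIs. Counts are therefore also given without each of these mice. The replicate was the mouse throughout. A fold change is of log2(signal + 1), and a gene was called at a Benjamini-Hochberg adjusted p under 0.05 over all 19962 genes, from limma unless another tool is named.

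The first comparison asked how the release machinery differs between CA3 and CA1, fields whose pyramidal cells send the Schaffer collaterals and receive them. Of the 82 genes, 24 were higher in CA3 (29.3%, against 5.04% of all genes) and 16 were lower (19.5%, against 12.7% of all genes), in 10 mice. The background moved with the scaling: 75th percentile scaling called 2525 genes of the table higher and 1442 lower, against 1007 and 2528 on the deposited scale, with 31 of the 82 genes higher and 14 lower and a median of 0.23, against 0.08. All 24 higher calls and 12 of the 16 lower calls also held under quantile normalization and 75th percentile scaling. Without mouse 1175 the counts were 24 and 16, and without mouse 1163 they were 24 and 16. The calcium sensors held both extremes, Rph3a and Doc2b.

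Rph3a encodes rabphilin, a Rab3 effector with 2 calcium-binding C2 domains, and lies at 5:120940499-121010116 (GRCm38.p6). Its signal in single mice ran from 174 over a median of 407 to 610.4 in CA3, against 34.3, 49.8 and 62.6 in CA1. The lowest CA3 value, of mouse 1163, stood above the highest CA1 value, so the fields did not overlap. The difference was 2.97 ± 0.11 (log2 ± SE, a 7.85-fold higher value; adjusted p = 1.83e-19) and positive in 10 of 10 mice. Doc2b, a soluble calcium sensor linked to spontaneous and asynchronous release, lies at 11:75768270-75796060 and ran the other way. Its signal had a lowest, median and highest mouse of 17.9, 24.2 and 34.3 in CA3, against 136.9, 194.6 and 304.05 in CA1. The fields again did not overlap, and the log2 difference was -2.97 ± 0.10 (adjusted p = 1.03e-20), negative in 10 of 10 mice. In the cortex Doc2b had a mean of 19.05 ± 3.64 in MC and 19.9 ± 3.34 in SS (SD, n = 10 each). The paralogue Doc2a went the other way, at 43.6 ± 9.80 in CA3 and 29.3 ± 3.81 in CA1 (log2 difference 0.52 ± 0.12, adjusted p = 0.00183), and Doc2g was not called (-0.14).

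**Figure D1:**
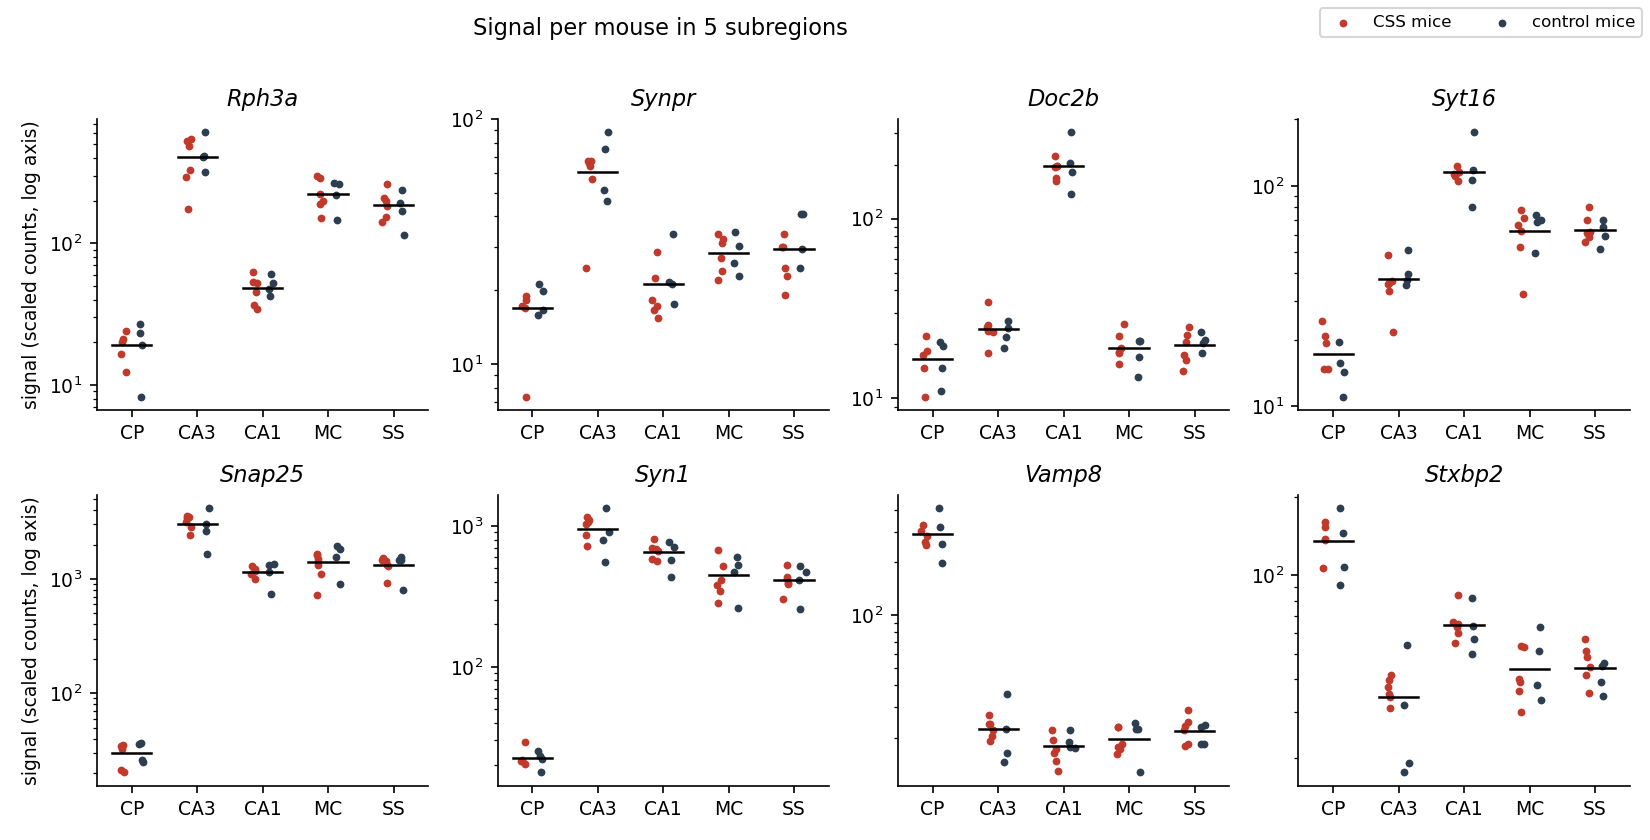
Signal of 8 genes per mouse (points, CSS mice left and control mice right within a subregion; bars, mean over mice) in 5 subregions, on a log axis. Rph3a ran from 174 to 610.4 in CA3 and Doc2b from 136.9 to 304.05 in CA1, while Vamp8 and Stxbp2 had their highest mean in CP.

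Among the other genes of the calcium sensor role, Syt13, Syt1 and Syt11 were higher in CA3, and Syt16, Syt17, Syt5, Syt14 and Syt12 were lower. Syt16, a synaptotagmin whose C2 domains lack calcium-binding residues, had a lowest, median and highest signal of 21.8, 36.5 and 50.96 in CA3 and 79.7, 112.6 and 175.6 in CA1 (log2 difference -1.64 ± 0.10, adjusted p = 5.03e-14). No CA3 value of Syt16 reached the lowest CA1 value. Syt17, also known as B/K protein, had 13.2, 20.5 and 26.7 in CA3 and 19.3, 41.6 and 80.6 in CA1 (-1.19 ± 0.15, adjusted p = 1.45e-07), so that the fields overlapped although all 10 mice were lower in CA3. Syt1, the main sensor of fast release in forebrain neurons, differed far less, with 798.7 ± 190.3 in CA3 and 643.9 ± 110.03 in CA1 (0.27 ± 0.08, adjusted p = 0.0123).

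The genes of the core target membrane SNAREs Snap25 and Stx1a had a higher signal in CA3. Snap25 had a lowest, median and highest mouse of 1667, 3089.8 and 4193 in CA3, against 737, 1159 and 1350.3 in CA1. The fields did not overlap, and the difference was 1.37 ± 0.08 (2.59-fold, adjusted p = 4.36e-15). Mouse 1175 gave the lowest value in each field. Stx1a (0.48) and the vesicle SNARE Vamp1 (0.94) were also called higher, while Vamp2, the more widely used vesicle SNARE, was not (0.17, adjusted p = 0.132), although quantile normalization (0.20) and 75th percentile scaling (0.33) each called it higher. Among t-SNAREs of organelle membranes, Stx6 of the trans-Golgi network and endosomes (-0.81), Stx7 of late endosomes (-0.55) and Stx5a of the Golgi (-0.40), with Stx4a of the plasma membrane (-0.49), were lower in CA3. The call for Stx5a did not hold under quantile normalization (-0.18, adjusted p = 0.0988).

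Of the proteins that act between the vesicle and the active zone, 3 of 10 priming and active zone genes, 2 of 4 complexins and 2 of 3 synapsins were called higher in CA3. Of all genes, 5.04% were. Cplx2 had a lowest, median and highest signal of 673, 1118 and 1559.6 in CA3, against 309, 428 and 571 in CA1 (1.24 ± 0.08, adjusted p = 4.53e-14), and Cplx1 rose by 0.92. The scaffold Rims1 had 98.7, 163.8 and 202.3 in CA3, against 40.8, 74.6 and 102.06 in CA1 (1.12 ± 0.08, adjusted p = 5.89e-13). Bassoon (Bsn) differed by 1.09 ± 0.08 and its partner piccolo (Pclo) by 0.30 ± 0.09. In this role 2 genes were lower in CA3: Unc13a, the main priming factor of glutamate synapses (-0.46), and Rims4 (-0.46). Of the synapsins, which tether vesicles to each other and to actin, Syn2 (1.13) and Syn1 (0.53) were higher and Syn3 lower (-0.47). The Syn3 call did not hold under 75th percentile scaling (-0.32, adjusted p = 0.0905).

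Vesicle membrane proteins were called in 4 of 5 cases, all higher in CA3, against 5.04% of all genes. Synaptoporin (Synpr), a synaptophysin relative known from hippocampal mossy fibre terminals, had 24.5, 65.1 and 88.4 in CA3, against 15.4, 19.7 and 33.7 in CA1 (1.41 ± 0.15, adjusted p = 8.52e-09). Mouse 1163 alone gave the value of 24.5 in CA3, the only one within the CA1 range. Sv2b (0.66), Syp (0.42) and Sv2a (0.34) were also higher, and Sv2c was not called. Rab3c was the only Rab3 GTPase called (-0.71 ± 0.09, adjusted p = 2.95e-07), and Stxbp2, a Munc18 protein known from secretion in blood cells and epithelia, was lower (-0.95 ± 0.11). From the list of other presynaptic genes, 19 of 41 were higher in CA3 (against 5.04% of all genes) and 3 lower (against 12.7%). They were led by the active zone gene Erc2 (0.84) and by Cadps2, a dense-core vesicle priming factor (-2.26).

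**Figure D2:**
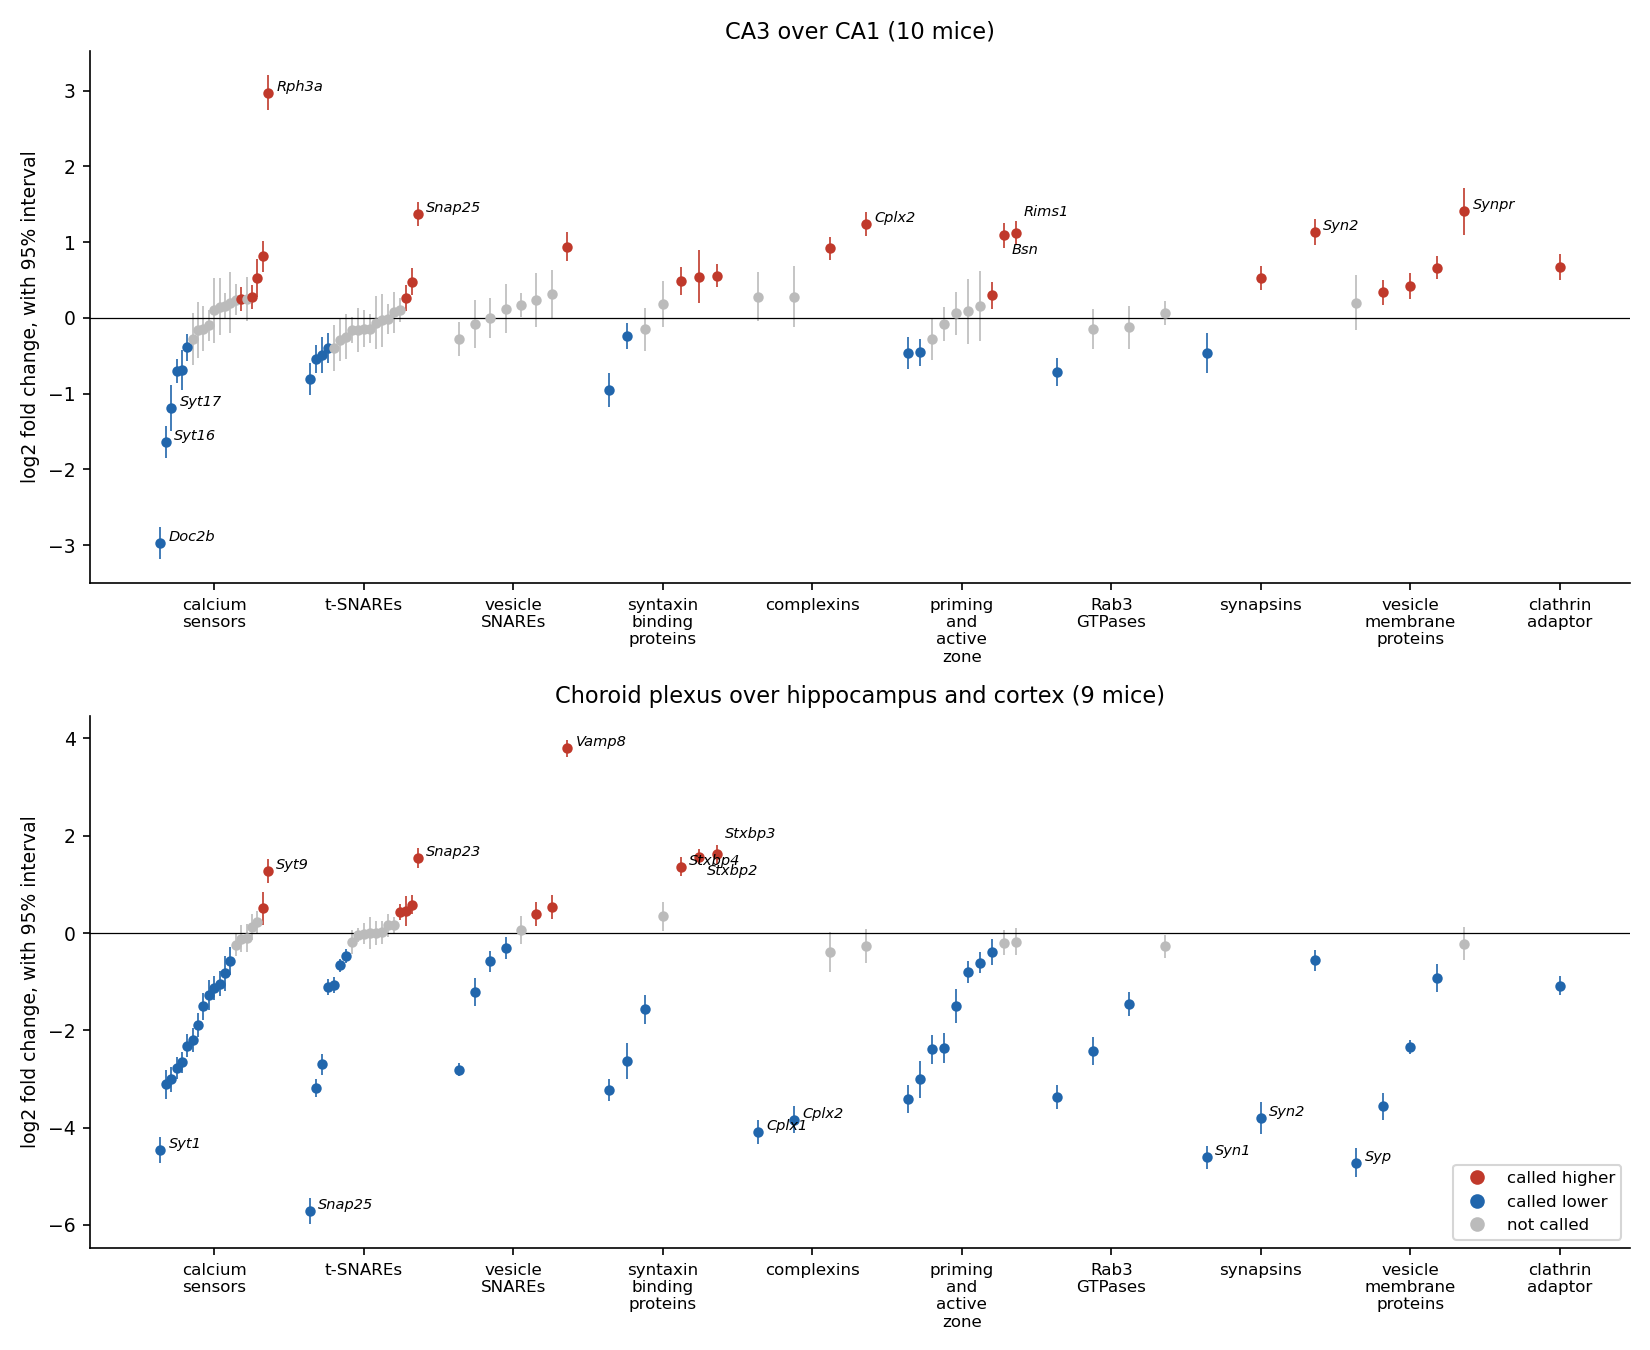
Log2 fold change of each of the 82 genes (points, with 95% interval) by role, in CA3 over CA1 (upper panel) and in choroid plexus over hippocampus and cortex (lower panel), coloured by call. In CA3 the calcium sensors held both extremes, Rph3a at 2.97 and Doc2b at -2.97, and in the choroid plexus Vamp8 stood at 3.80 and Snap25 at -5.71.

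Cell type markers also differed between the fields. Of 8 general neuron markers 2 were higher and 2 lower in CA3, and of 6 astrocyte and 6 oligodendrocyte markers 4 of each were higher and none lower. Of all genes, 5.04% were higher and 12.7% lower on the deposited scale. The summed oligodendrocyte signal per mouse ran from 430 to 777 in CA3 and from 261 to 474 in CA1, and no marker was at 0. The ratio of the median gene to the negative probe was higher in CA3 in 1 of 10 mice (mean log2 ratio 0.642 in CA3 and 0.757 in CA1, exact sign-flip p = 0.00391, 2-sided). The part of these in the 40 calls was not tested. In sections, fewer cells of a type and less RNA per cell cannot be told apart.

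Next, hippocampus (the mean of CA3 and CA1) was set against cortex (the mean of MC and SS) within 10 mice. On the deposited scale 45 of the 82 genes were higher in hippocampus (54.9%, against 34.4% of all genes) and 16 lower (19.5%, against 16.7% of all genes). This split depended on the scaling: quantile normalization gave 17 higher and 33 lower, and 75th percentile scaling 28 higher and 36 lower. The share called lower was larger among the 82 genes than among all genes under quantile normalization. Under 75th percentile scaling it was smaller than among all genes. Counts over all genes under each scaling are given in the last section. The median of all genes was -0.03 on the deposited scale and -0.37 under 75th percentile scaling, and that of the 82 genes 0.30 and -0.04. Only 9 higher and 13 lower calls held under all 3 scalings, and these are described here. The share of all genes that held under all 3 scalings is not given.

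The 9 genes higher in hippocampus under all 3 scalings were Doc2b, Syn2, Stxbp5l, Rab3c, Syt3, Unc13a, Stxbp5, Stx12 and Stx6. Doc2b had a lowest, median and highest signal of 77.9, 107.7 and 164.3 in hippocampus, against 15.5, 20.3 and 23.5 in cortex (1.78 ± 0.09, adjusted p = 4.18e-19), without overlap. In CA3 alone Doc2b ran from 17.9 to 34.3, a range that meets that of cortex, so its excess lay mainly in CA1. Syn2 had 361, 583 and 797 in hippocampus, against 106.3, 170.8 and 267 in cortex (1.58 ± 0.07, adjusted p = 1.25e-19), also without overlap, although the size fell to 0.62 under quantile normalization. The tomosyns Stxbp5l (1.30 ± 0.08) and Stxbp5 (0.93 ± 0.07), which hold syntaxin and Snap25 in complexes that cannot fuse, were both on this list, with Rab3c (1.23 ± 0.08) and Syt3 (1.06 ± 0.07). Synaptophysin (Syp) was called higher at 1.16 on the deposited scale but stood at -0.07 under quantile normalization.

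The 13 genes lower in hippocampus under all 3 scalings were Syt6, Rims3, Stxbp6, Rab3b, Rims4, Rph3a, Syt10, Cplx3, Doc2a, Syt2, Stx1a, Syt9 and Sv2c. Syt6 had a lowest, median and highest signal of 11.8, 14.1 and 21.6 in hippocampus, against 23.8, 43.6 and 73.95 in cortex (-1.39 ± 0.10, adjusted p = 2.58e-14), without overlap. In hippocampus it lay near the negative probe, above it in 7 of 18 CA3 and 9 of 18 CA1 AOIs. The small RIM protein Rims3 had 13.5, 21.8 and 24.7 in hippocampus, against 34.3, 49.7 and 64.99 in cortex (-1.16 ± 0.10, adjusted p = 4.32e-12), and its relative Rims4 followed at -0.62 ± 0.07. Amisyn (Stxbp6), a syntaxin binding protein, had 14.4, 17.9 and 21.3 in hippocampus, against 24.5, 30.97 and 41.6 in cortex (-0.85 ± 0.10, adjusted p = 2.76e-09).

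Rph3a also needs its fields apart. It was called lower in hippocampus (-0.57 ± 0.08, adjusted p = 7.11e-08), on the average of the log2 values of CA3 and CA1, while its mean signal was 228.9 in hippocampus and 205.03 in cortex. By subregion the mean ± SD over mice was 409 ± 133 in CA3, 48.6 ± 9.35 in CA1, 223.7 ± 53.8 in MC and 186.3 ± 44.7 in SS (n = 10 each). Summing counts over both fields, edgeR gave 0.17 in hippocampus over cortex.

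**Figure D3:**
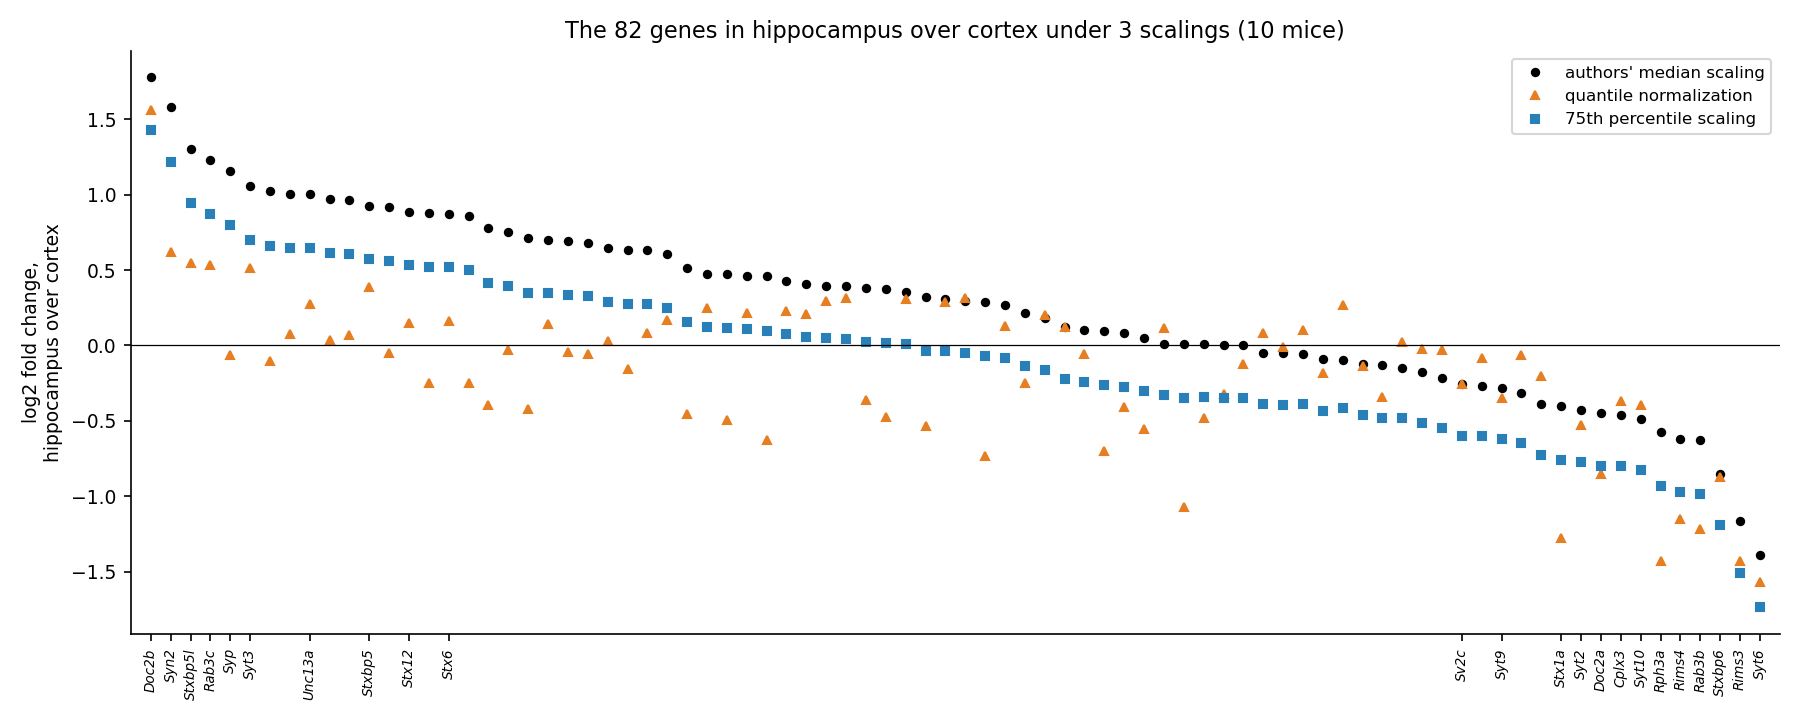
Log2 fold change of the 82 genes in hippocampus over cortex (10 mice), ordered by the value on the deposited scale (circles), with quantile normalization (triangles) and 75th percentile scaling (squares). Names mark Syp and the genes called under all 3 scalings. Doc2b stood at 1.78, 1.56 and 1.43 and Syt6 at -1.39, -1.57 and -1.74, while Syp stood at 1.16, -0.07 and 0.80.

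Markers moved in the same comparison on the deposited scale: 6 of 8 general neuron markers were higher and none lower in hippocampus, and 6 of 6 oligodendrocyte markers were lower. Of all genes, 34.4% were higher and 16.7% lower. The summed general neuron signal per mouse ran from 1306 to 2806 in hippocampus and from 805 to 1768 in cortex. The ratio of the median gene to the negative probe was higher in hippocampus in 10 of 10 mice (mean log2 ratio 0.700 against 0.454, exact sign-flip p = 0.00195, 2-sided). The part of these in the calls was not tested. From the list of other presynaptic genes, 36 of 41 were higher in hippocampus on the deposited scale (against 34.4% of all genes) and 1 lower (against 16.7%). Among them were Nsf (1.47), with Dnm3 lower (-0.61). Counts of the markers and of this list under the other scalings are not given.

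Motor and somatosensory cortex were also compared within 10 mice. None of the 82 genes was called (limma, 0% of all genes called), nor by edgeR, which called 14 genes of the table, and 4 of the 82 had an unadjusted p under 0.05, against 5.51% of all genes. The log2 differences of the 82 genes lay between -0.37 and 0.31, with a median SE of 0.10. The values that came nearest were Rph3a, at 223.7 ± 53.8 in MC and 186.3 ± 44.7 in SS (0.26 ± 0.09, 95% interval 0.07 to 0.44, adjusted p = 0.875), and Cplx3, a complexin known from retinal ribbon synapses, at 17.6 ± 4.53 in MC and 25.05 ± 12.9 in SS (-0.37 ± 0.16, 95% interval -0.70 to -0.04, adjusted p = 0.903). In MC, Cplx3 lay near the negative probe, which had a median of 16.5 there.

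The choroid plexus is an epithelium, and it was set against the mean of hippocampus and cortex in 9 mice. Of the 82 genes, 49 were lower in CP (59.8%, against 19.6% of all genes) and 12 higher (14.6%, against 20.6% of all genes), the same 61 under all 3 scalings. All 3 synapsins, 8 of 10 priming and active zone genes and 4 of 5 vesicle membrane genes were lower. So were 14 of 21 genes of the calcium sensor role, and in all these roles only Syt9 and Syt15 were higher. Syt15 lay near the negative probe in CP, at a mean of 11.3 in CSS and 15.5 in control mice, against a probe median of 13.6. The higher genes were otherwise SNAREs and syntaxin binding proteins. The label was borne out by markers: 6 of 6 choroid plexus epithelium markers were higher, their summed signal per mouse running from 50608 to 99095 in CP and from 108 to 252 elsewhere. All 8 general neuron markers were lower, with sums of 148 to 205 in CP and 1055 to 2287 elsewhere. The mean log2 ratio of the median gene to the negative probe was 0.729 in CP and 0.574 elsewhere, higher in 9 of 9 mice (exact sign-flip p = 0.00391, 2-sided), and its part was not tested.

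Snap25 fell the most of the 82 genes. Its signal had a lowest, median and highest mouse of 20.2, 32.6 and 36.9 in CP, against 1027, 1825 and 2241 in hippocampus and cortex. The difference was -5.71 ± 0.13 (adjusted p = 1.08e-17), and the groups lay far apart, although Snap25 stayed above the negative probe in 16 of 16 CP AOIs. Syp had 16.6, 34.8 and 44.1 in CP, against 537, 962 and 1331 elsewhere (-4.72 ± 0.14, adjusted p = 1.07e-15). Syn1 had 17.7, 21.7 and 29.4 in CP, against 376, 603 and 809 elsewhere (-4.61 ± 0.11, adjusted p = 4.48e-17). Syt1 (-4.46), Cplx1 (-4.08) and Cplx2 (-3.84) followed, each lower in 9 of 9 mice. The negative probe in CP AOIs had a median of 13.6, so the CP values of many of these genes lay near the lowest signal that could be measured, and their fold changes can understate the difference. Vamp2 kept more signal in CP, at 98.2 ± 16.1 against 731.7 ± 171.8 elsewhere (SD, n = 9; -2.81 ± 0.06, adjusted p = 1.41e-17 from limma).

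The 12 genes higher in CP were led by Vamp8. Vamp8 (endobrevin), a vesicle SNARE of endosomes and of secretory granules in gland and blood cells, had a lowest, median and highest signal of 197.4, 282.2 and 410.3 in CP, against 18.1, 20.1 and 22.1 elsewhere. The groups did not overlap, and the difference was 3.80 ± 0.08 (13.9-fold, adjusted p = 9.45e-18). Elsewhere it lay near the negative probe. Snap23, the widely expressed relative of Snap25, had 46.2, 74.9 and 85.5 in CP, against 21.7, 23.6 and 26.7 elsewhere (1.54 ± 0.10, adjusted p = 9.51e-11). Stxbp3 (Munc18c, a partner of Stx4) had 58.5, 71.7 and 81.96 in CP, against 18.1, 22.3 and 25.5 elsewhere (1.61 ± 0.09, adjusted p = 7.16e-12), and Stxbp2 had 91.5, 138.03 and 181.2 in CP, against 35.5, 44.9 and 58.1 elsewhere (1.57 ± 0.07). Stxbp4 (1.36) and Syt9 (1.28) were the other 2 above 1, and Stx18, Vamp5, Syt15, Stx17, Stx4a and Vamp3 were higher by 0.39 to 0.59. Of these, Syt15 lay near the negative probe in CP. Within the t-SNAREs, Stx1a was lower (-2.70). From the list of other presynaptic genes, 35 of 41 were lower in CP (against 19.6% of all genes), led by the vesicular glutamate transporter Slc17a7 (-4.70) and Dnm1 (-4.21). The 2 that were higher (against 20.6% of all genes) were Ppfia1 (0.73) and Sh3gl1 (0.38).

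The promoters of 5 of these genes are shown, 3 lower and 2 higher in CP, to set side by side the letters before genes that moved in opposite directions. RefSeq windows (GRCm38.p6, 250 bases before to 50 after a gene's start) were found for 63 of the 82 genes, some with several starts. Of the 63, only Syn1, Unc13a and Stxbp3 matched either of the 2 motifs capitalised below, and all of them are among the 5 shown. Each is printed 5′ to 3′ on the gene's strand, with 2 motifs in capitals on either strand: TTCAGCACC, the left part of the RE1 element bound by the neuronal gene repressor REST, and TGACGTCA, the cyclic AMP response element.
Syn1 (X:20920869-20921168, minus strand): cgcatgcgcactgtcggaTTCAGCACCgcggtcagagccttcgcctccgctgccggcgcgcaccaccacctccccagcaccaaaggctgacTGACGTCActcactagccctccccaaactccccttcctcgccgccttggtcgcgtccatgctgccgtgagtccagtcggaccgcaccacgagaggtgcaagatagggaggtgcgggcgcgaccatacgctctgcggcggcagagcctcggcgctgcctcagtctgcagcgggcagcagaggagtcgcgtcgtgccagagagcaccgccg
Unc13a (8:71671708-71672007, minus strand): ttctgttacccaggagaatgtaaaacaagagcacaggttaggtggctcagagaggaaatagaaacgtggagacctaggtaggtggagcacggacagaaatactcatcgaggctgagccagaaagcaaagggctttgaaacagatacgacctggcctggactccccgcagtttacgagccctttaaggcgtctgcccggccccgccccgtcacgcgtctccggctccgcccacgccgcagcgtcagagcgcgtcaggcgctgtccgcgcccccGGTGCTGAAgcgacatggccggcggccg
Syp (X:7638330-7638629, plus strand): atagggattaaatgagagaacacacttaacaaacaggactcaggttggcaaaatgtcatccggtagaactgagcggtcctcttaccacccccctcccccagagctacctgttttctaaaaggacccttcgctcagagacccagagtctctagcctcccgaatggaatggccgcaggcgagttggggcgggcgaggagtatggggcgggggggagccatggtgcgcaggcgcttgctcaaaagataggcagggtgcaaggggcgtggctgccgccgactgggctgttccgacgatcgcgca
Stxbp3 (3:108840453-108840752, minus strand): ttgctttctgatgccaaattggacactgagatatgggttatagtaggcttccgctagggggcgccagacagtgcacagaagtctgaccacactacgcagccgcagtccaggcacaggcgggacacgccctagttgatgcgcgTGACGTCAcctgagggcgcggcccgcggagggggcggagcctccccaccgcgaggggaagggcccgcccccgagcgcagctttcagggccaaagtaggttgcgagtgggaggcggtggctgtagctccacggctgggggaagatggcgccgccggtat
Vamp8 (6:72390618-72390917, minus strand): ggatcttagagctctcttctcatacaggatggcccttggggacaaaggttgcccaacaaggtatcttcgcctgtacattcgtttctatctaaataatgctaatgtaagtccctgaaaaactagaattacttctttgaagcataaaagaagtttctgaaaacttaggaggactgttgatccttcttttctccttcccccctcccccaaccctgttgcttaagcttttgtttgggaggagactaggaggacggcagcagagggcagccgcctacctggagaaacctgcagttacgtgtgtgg

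The RE1 part matched 2 of 48 windows of genes lower in CP (4.17%), those of Syn1 and Unc13a, none of 11 windows of genes higher in CP and none of 23 windows of genes not called, against 0.371% of all 32851 windows in the table. Syn1 was at 22.5 ± 3.30 in CP and 613 ± 134 elsewhere, and Unc13a at 11.7 ± 4.69 in CP and 102 ± 19.5 elsewhere (SD, n = 9). TGACGTCA matched 1 of 48 windows of lower genes (Syn1) and 1 of 11 of higher genes (Stxbp3), against 1.79% of all windows. The GC box GGGCGG matched 70.8% of windows of lower genes and 72.7% of windows of higher genes and 47.8% of windows of genes not called, against 35.7% of all windows. A match is a description of the letters and not a site, and no match says only that these letters are not in this window.

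The p16 label was compared within mice, in hippocampus and cortex together and in each subregion. For hippocampus and cortex, each mouse entered with the subregions where it had both labels, so the mix of subregions differed between mice. CSS mouse 1163 entered with CA1 and MC, and CSS mouse 1169 with CA3 and SS. CSS mouse 1170 entered without CA1, and control mouse 1182 without CA3. In hippocampus and cortex (10 mice) no member of the 82 was called by limma, against 0.386% of all genes (77 genes). Of the 82, 56 stood above 0, against 57.7% of all genes, and 25 had an unadjusted p under 0.05, against 14.2% of all genes, and their median was 0.07, against 0.03 for all genes. Beside these, 3 members were called higher by edgeR, and between 0 and 6 when 1 mouse was left out, with 6 without control mouse 1182, where 256 genes of the table were called higher.

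The 3 members nearest to the threshold were higher in p16 high AOIs. Sv2b, a vesicle glycoprotein, had a lowest, median and highest mouse of 128.3, 217.3 and 340.8 in p16 high AOIs, against 107.6, 192.9 and 242.8 in p16 low AOIs. The labels overlapped widely, and the difference within mice was positive in 9 of 10 (0.23 ± 0.06, adjusted p = 0.0591, with a range of 0.0309 to 0.886 over the alternatives). Stxbp5l had 75.1, 133.1 and 200.5 in p16 high AOIs, against 63.8, 106.3 and 112.6 in p16 low AOIs (0.27 ± 0.07, adjusted p = 0.062, range 0.0205 to 0.886), with 8 of 10 mice positive. Syt4, a synaptotagmin of dense-core vesicles, had 75.3, 104.5 and 135.9 in p16 high AOIs, against 67.6, 87.6 and 125.5 in p16 low AOIs (0.22 ± 0.06, adjusted p = 0.0718, range 0.037 to 0.886), with 9 of 10 mice positive. At the other end, Cplx3 (-0.20 ± 0.12), Syt8 (-0.19 ± 0.11) and Rims3 (-0.17 ± 0.10) were not called. With quantile normalization the median of the 82 genes was -0.02, and with 75th percentile scaling -0.01.

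Other measures moved with the label. The ratio of the median gene to the negative probe was higher in p16 high AOIs in 9 of 10 mice (mean log2 ratio 0.600 against 0.553, exact sign-flip p = 0.0117, 2-sided), and p16 high AOIs averaged 666729 counts, against 750130 for p16 low AOIs. With that ratio as a covariate 2 members were called higher. Of 6 excitatory neuron markers 6 stood above 0, with Nrgn called, and of 8 inhibitory neuron markers none did. The summed excitatory marker signal ran from 3360.1 to 7465 in p16 high AOIs and from 2826 to 5756 in the p16 low ones, and 38 of 41 other presynaptic genes stood above 0 with none called. The part of these neurons was not tested.

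In CA1 (8 mice) none of the 82 was called, against 0.0902% of all genes. Syn1 came nearest, with a lowest, median and highest mouse of 472, 667 and 904.7 for p16 high, against 403, 580.5 and 709 for p16 low AOIs (0.26 ± 0.07, limma adjusted p = 0.074), higher in 7 of 8 mice. It was called without mouse 1182 (adjusted p = 0.0268). Snap25 was higher in 8 of 8 mice (0.21 ± 0.06, limma adjusted p = 0.0989) but stood at -0.01 under quantile normalization. In CA3 (8 mice) none was called, 0% of all genes, while 25 of the 82 had an unadjusted p under 0.05, against 13.3% of all genes, and edgeR called none of them. Stxbp5l had the largest difference, with 95.1, 268.7 and 433 for p16 high, against 81.5, 153.6 and 222.5 in p16 low AOIs (0.64 ± 0.18, limma adjusted p = 0.184), and Sv2b followed (0.48 ± 0.13, limma adjusted p = 0.184). Here CSS mouse 1152 decided the count: without it 523 genes of the table were called higher, 9 of the 82 among them, with Stxbp5l at 0.85 (limma adjusted p = 0.0041). The median of the 82 genes, 0.10 in CA3 and 0.14 in CA1, was -0.0379 in CA3 and 0.024 in CA1 under 75th percentile scaling, and -0.0392 in CA3 and -0.0069 in CA1 under quantile normalization. The log2 ratio of the gene median to the negative probe was 0.677 for p16 high, against 0.563 for p16 low CA3 AOIs, higher in 8 of 8 mice (exact sign-flip p = 0.00781, 2-sided). Its part in these values was not tested.

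In MC and SS (9 mice each) and in CP (7 mice), none of the 82 was called, 0% of all genes in each, and edgeR called none of them. With an unadjusted p under 0.05 there were 6 of the 82 in MC (4.99% of all genes), 5 in SS (4.50% of all genes) and 4 in CP (5.24% of all genes). In MC, Syt12 came nearest (62.1 ± 11.4 for p16 high, against 49.9 ± 8.73 in p16 low AOIs, 0.31 ± 0.10, limma adjusted p = 0.913). In SS, Syt16 came nearest (70.3 ± 13.6 for p16 high, against 56.5 ± 8.10 in p16 low AOIs, 0.30 ± 0.11, limma adjusted p = 0.945). In CP the lowest p-values were those of Stxbp3 and Stxbp2, both higher in CP than elsewhere. Stxbp3 was at 60.5 ± 9.66 for p16 high, against 79.7 ± 15.2 in p16 low AOIs (-0.39 ± 0.11, limma adjusted p = 0.889) and Stxbp2 at 125.2 ± 31.3 for p16 high, against 147.04 ± 29.5 in p16 low AOIs (-0.24 ± 0.08, limma adjusted p = 0.889), each lower in 7 of 7 mice. Whether the subregions differed in the effect of the label was not tested.

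**Figure D4:**
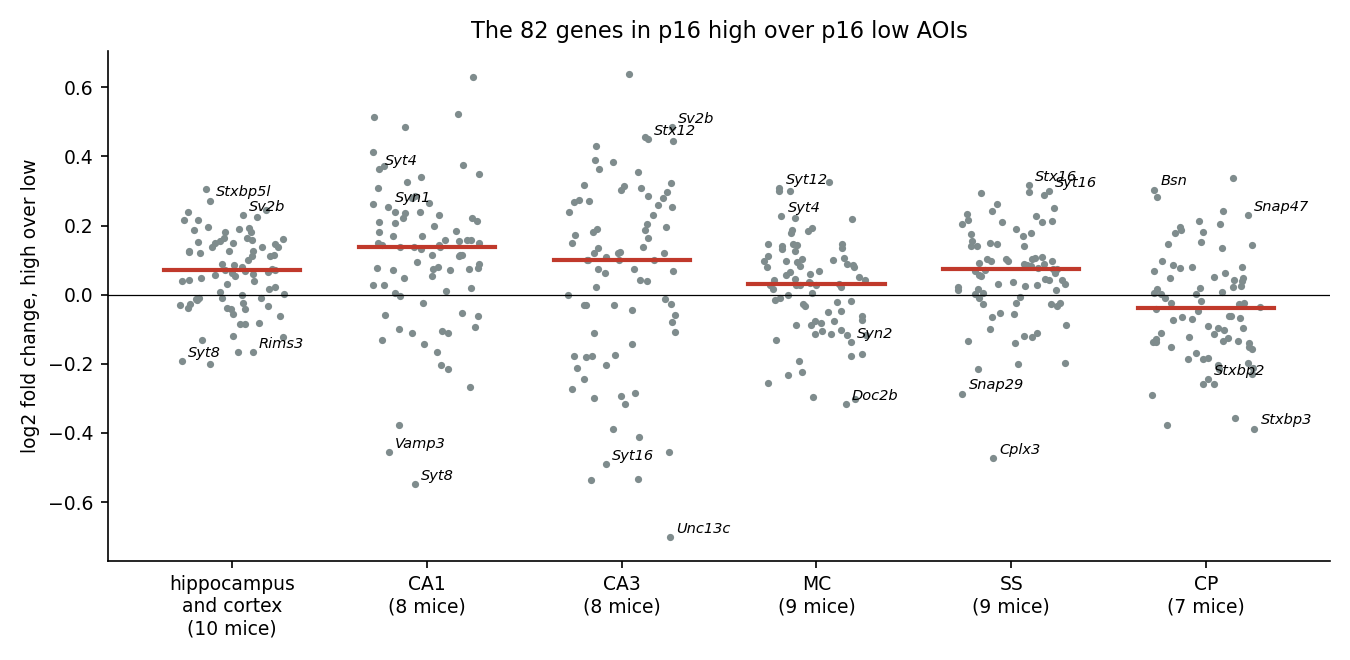
Log2 fold change of the 82 genes (points) in p16 high over p16 low AOIs, in hippocampus and cortex together and in each subregion, with the median as a bar and genes of extreme moderated t named. On the deposited scale the medians were 0.07 in hippocampus and cortex, 0.14 in CA1, 0.10 in CA3, 0.03 in MC, 0.07 in SS and -0.04 in CP, and no gene was called; under quantile normalization the first 3 lay below 0.

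CSS mice were compared with control mice, 6 against 4 (5 against 4 in CP), over hippocampus and cortex and in each subregion. None of the 82 genes was called in any of the 6 comparisons, where limma called 0% of all genes and edgeR none of the 82. In hippocampus and cortex the log2 differences of the 82 genes ran from -0.20 to 0.24, with a median of -0.01 and a median SE of 0.13, and 1 gene had an unadjusted p under 0.05, against 1.96% of all genes. That gene was Vamp3 (cellubrevin), a vesicle SNARE of recycling endosomes. Its lowest, median and highest mouse were 16.4, 18.25 and 21.4 in CSS mice, against 14.1, 15.2 and 16.7 in control mice. The groups overlapped at 1 CSS mouse, and the difference was 0.24 (95% interval 0.02 to 0.47, adjusted p = 0.9997 from limma), close to the negative probe. Counts per AOI averaged 639380 in CSS and 821110 in control mice, and the part of this depth was not tested.

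By subregion the spread was wider, with a median SE of 0.20 in CA1, 0.22 in CA3, 0.19 in MC, 0.18 in SS and 0.22 in CP. In SS, Syt6 had a lowest, median and highest mouse of 29.1, 51.3 and 67.6 in CSS mice, against 29.1, 33.4 and 43.6 in control mice (0.55, 95% interval 0.16 to 0.94, limma adjusted p = 0.999). Its ranges overlapped, and 4 of the 6 CSS mice stood above all control mice. Cplx3 in SS had 15.8, 24.4 and 50.6 in CSS mice, against 11.6, 18.5 and 21.6 in control mice (0.55, 95% interval 0.07 to 1.02). Its lower values lay near the negative probe, which had a median of 15.9 over SS AOIs. In CA3, Sv2c was at 24.8 ± 1.86 in CSS and 18.98 ± 9.91 in control mice (0.55, 95% interval 0.08 to 1.03), and in CP, Rab3c was at 20.4 ± 1.59 in CSS and 14.2 ± 4.54 in control mice (0.57, 95% interval 0.09 to 1.04), both near the negative probe. In MC, Vamp9 came nearest (0.48, 95% interval 0.04 to 0.92), at 16.2 in CSS and 12.3 in control mice, where the negative probe had a median of 16.5 over MC AOIs, and in CA1, Vamp3 (0.50, 95% interval 0.02 to 0.98). The major release genes Snap25, Syt1, Syn1, Vamp2 and Stx1a were not among the 3 highest or 3 lowest moderated t values of any of these comparisons. How their errors stood to the median SE varied: in CP only Syt1 lay above it, and in MC all of these genes did. In MC the 95% intervals reached from that of Stx1a (-0.60 to 0.46) to that of Snap25 (-1.57 to 1.10). A change in these genes is therefore not excluded.

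**Figure D5:**
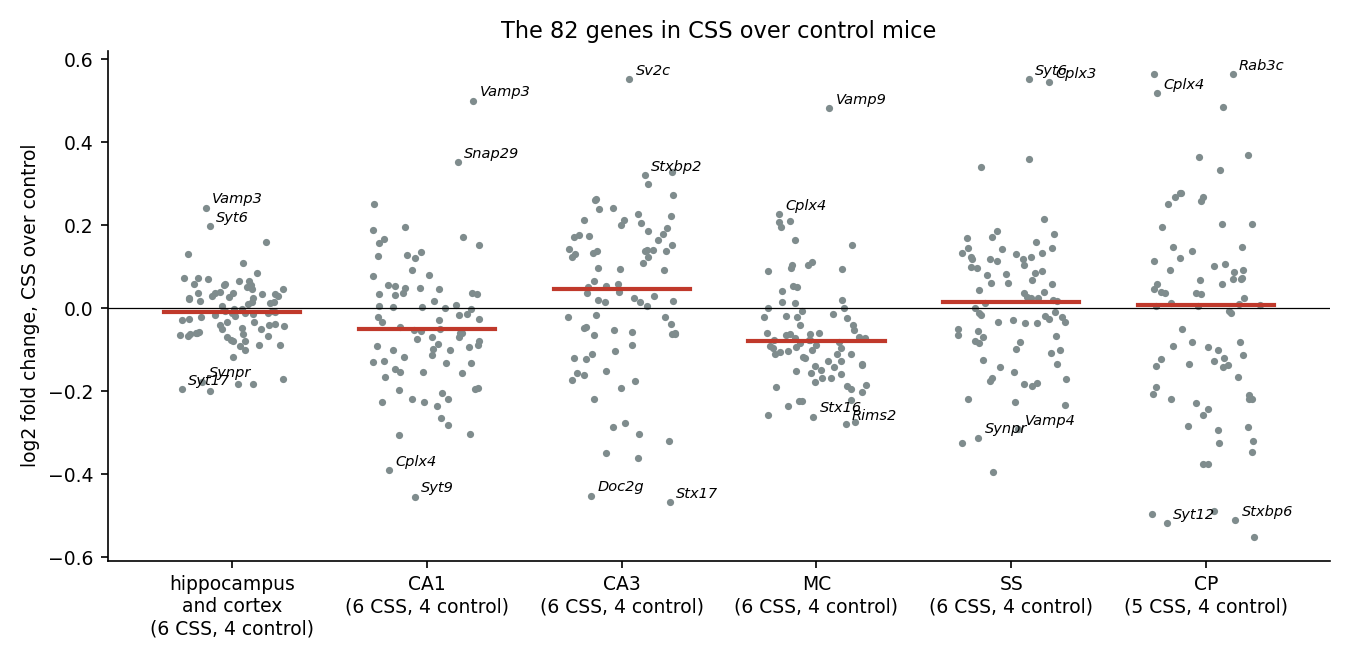
Log2 fold change of the 82 genes (points) in CSS over control mice, in hippocampus and cortex together and in each subregion, with the median as a bar and genes of extreme moderated t named. The values in hippocampus and cortex lay between -0.20 and 0.24, and no gene was called.

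Last, the p16 difference of each mouse over hippocampus and cortex was compared between stress groups. It was taken over the subregions where the mouse had both labels. These were incomplete in CSS mice 1163, 1169 and 1170 and in control mouse 1182. None of the 82 genes was called (0% of all genes by limma, none by edgeR), and 7 had an unadjusted p under 0.05, against 3.28% of all genes. Snap23 had the largest value. Its log2 difference, p16 high minus p16 low, was -0.39 ± 0.21 in CSS mice (SD, n = 6) and 0.29 ± 0.49 in control mice (SD, n = 4), a change of -0.68 ± 0.20 (SE; limma adjusted p = 0.998). It was negative in each of the 6 CSS mice, between -0.62 and -0.04, and positive in each of the 4 control mice, between 0.03 and 1.02, where mouse 1151 gave the value of 1.02 and the other 3 lay at most at 0.07. Syt4 differed by 0.32 ± 0.10 in CSS and 0.05 ± 0.09 in control mice (a change of 0.27 ± 0.12, limma adjusted p = 0.998).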

How the data were processed

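Gene expression was measured in 90 AOIs from 10 mice. The authors deposited a table of signal, from the GeoMx Whole Transcriptome Atlas per the series' design text; the genome build is mm10 per the submitters' processing notes, and the sources used here do not give the read processing tools. Per the deposited signal values themselves, each is a probe count times 1 factor per AOI that sets the gene median to 22.067. At least 99.985% of values per AOI came within 0.01 of a whole count, apart from 3 genes; all were rounded. Columns were matched to samples by title.

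AOIs of a mouse were averaged per condition as log2(signal + 1), and limma 3.58.1 in R 4.3.3 (lmFit, eBayes with trend, 2-sided) was fitted over all 19962 genes with the mouse as a fixed block. Pairing rests on the labels, where equal mouse numbers mark the same animal. Over 41 same-mouse pairs of AOIs, the median correlation of deviations from the group means was 0.0708, and 13 pairs exceeded 0.1. For CSS against control, values were first centred within each subregion and p16 label, halfway between the CSS and control means, then averaged per mouse. Alternatives were a pseudocount of 10, genes above the median signal alone, quantile normalization, 75th percentile scaling, no block, the mouse as a random block (its correlation from every 10th gene), edgeR 4.0.16 (quasi-likelihood) on recovered counts, the gene median over the negative probe as a covariate in 2 comparisons, and leaving out each mouse. Of the 82 genes edgeR called 27 higher and 17 lower in CA3, 42 and 22 in hippocampus, and 11 and 54 in CP. Its counts over all genes are given for hippocampus in the last section, where the lower calls outnumber the higher ones. Those for CA3 and CP are not given, so the counts there stand without a background share. The scripts were tested on simulated data. Promoter sequences are from RefSeq (GRCm38.p6).

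Full values were given, in subregion comparisons, for up to 6 called genes each way by log2 fold change, and elsewhere for called genes or, with fewer than 3 such genes, from the 3 highest and 3 lowest by moderated t; other members could be named for contrast, and up to 2 other presynaptic genes each way. A few genes are not reported here by name. The members and lists were chosen with earlier results of these data known. The median count per gene was 6 to 82 per AOI, which limits the precision of dim genes.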

Additional observations from a re-analysis of the deposited data

Results flagged for a closer look

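In 11 of 172 groups of mice tested (6.4%), 1 mouse stood far from the others in the gap to its nearest neighbour; chance gives about 1 in 20. Values are log2 differences between conditions of a mouse, or log2 signal for the stress groups.

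In hippocampus over cortex, mouse 1151 stood at -0.503 for Syt6 (the others between -1.88 and -1.168), mouse 1182 at -2.201 for Rims3 (-1.354 to -0.487) and mouse 1163 at -1.412 for Rph3a (-0.739 to -0.131). In MC over SS, mouse 1169 stood apart in 2 genes of the calcium sensor role, at -0.461 for Rph3a (0.13 to 0.683) and at -0.876 for Syt13 (-0.197 to 0.159). In p16 high over low AOIs, mouse 1163 stood at -2.223 for Vamp5 in CA1 (-0.666 to 0.202) and at -0.105 for the median of the 82 genes in MC (0 to 0.095), and mouse 1170 at -1.307 for Vamp8 in MC (-0.554 to 0.045). Among CSS mice, mouse 1162 had a median of the 82 genes of 6.021 in CA1 (the others between 5.518 and 5.688), and mouse 1163 had 3.434 for Doc2g in CA3 (4.213 to 4.559) and 3.063 for Bsn in CP (4.351 to 4.684). Mouse 1163 gave 5 of these 11 values, including the Rph3a value that rests on its 1 CA3 AOI.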

How the results depend on the processing

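Under the alternatives that kept all mice, 319 counts and medians of the 82 genes stayed close to the reported value and 23 moved. In hippocampus over cortex, quantile normalization gave 17 higher and 33 lower with a median of -0.0606, 75th percentile scaling 28 and 36 with a median of -0.0439, and edgeR a median of 0.17; Syp turned to -0.0666 under quantile normalization and Rph3a to 0.17 in edgeR, which sums counts over CA3 and CA1. The median in CA3 over CA1 was 0.23 under 75th percentile scaling. The median in CP was -0.87 in edgeR, -1.12 for genes above the median signal and -0.60 with a pseudocount of 10. For p16 in hippocampus and cortex, members called higher numbered 6 among genes above the median signal, 3 in edgeR, 2 with a pseudocount of 10 and 2 with the covariate, where Cplx3 turned to 0.10; the median was -0.0139 under 75th percentile scaling and -0.0166 under quantile normalization. Over all genes, the 77 calls there were 0 under either scaling and without the replicate block, 1 with the mouse as a random block, 143 higher and 8 lower in edgeR, 267 and 1 among genes above the median signal, 128 and 1 with a pseudocount of 10 and 121 and 13 with the covariate; edgeR called 81 and 22 in p16 CA1, against 18 genes in limma, and 51 and 4 in p16 CA3, against 0. All genes in hippocampus over cortex gave 6864 higher and 3330 lower, against 3749 and 12451 under 75th percentile scaling, 3087 and 2677 under quantile normalization and 5898 and 8870 in edgeR; in CA3 over CA1 they gave 1007 and 2528, against 2525 and 1442 under 75th percentile scaling. In p16 CA1, the filter gave 1 call (Syn1), the median was 0.024 under 75th percentile scaling and -0.0069 under quantile normalization, where Snap25 turned to -0.0073. In p16 CA3 the medians were -0.0379 under 75th percentile scaling and -0.0392 under quantile normalization. The median for CSS in CP was -0.0806 for genes above the median signal. Leaving out 1 mouse gave 0 to 6 members called in p16 hippocampus and cortex, 0 to 1 in p16 CA1, 0 to 9 in p16 CA3 and medians of -0.0614 to 0.0351 for CSS in CP. The causes were not tested. Without the replicate block, CA3 over CA1 gave 18 higher and 15 lower, hippocampus over cortex 42 and 15, CP 12 and 49, and no member was called for p16. Genes near the negative probe, such as Syt15 and Unc13c, are limited by signal.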
